A study of Mus musculus with 18 samples.

Results

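The erythroid genes are 31 genes of red cell development, found by matching the Ensembl identifiers of 54838 genes in a raw count table to GENCODE M21 symbols. A further listed gene was not analysed here. They comprise 4 globins, 3 genes of heme synthesis and mitochondrial iron import, 5 of the membrane skeleton and band 3 complex, and 8 of blood group and other surface proteins. The other members are 5 transcription factors and nuclear proteins, 2 receptors and 4 cytosolic enzymes or ubiquitin ligases. Their RNA was measured in 18 libraries, 3 for each of 6 groups, all from wild type C57BL/6 mice whose age and sex were not given. LY6G and LY6C cells are populations of myeloid-derived suppressor cells (MDSC) grown from bone marrow for 5 days. LY6G cells were sorted as high in CD11b and Ly6G with intermediate Ly6C, and LY6C cells as high in CD11b and Ly6C without Ly6G. Both were plated after the sort and harvested a day later, following cycloheximide, which holds ribosomes on the mRNA. BM is unsorted marrow flushed from the femurs of 3 mice, a mixture of cells from which red cells had been lysed. From each kind of sample a polysomal library was made from the gradient fractions that carry several ribosomes per mRNA, and a total library from unfractionated RNA. The sorted libraries carry the numbers 2, 3 and 6 and the BM libraries 1, 2 and 3.

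Red cell precursors make hemoglobin from alpha- and beta-globin chains and from heme, whose synthesis starts with Alas2 and ends with Fech in the mitochondrion. They also build a spectrin and ankyrin skeleton under a membrane rich in the anion exchanger Slc4a1, and lose their nucleus before entering the blood. Gata1, Tal1 and Klf1 are transcription factors of the lineage, and erythropoietin acts through Epor. Several members have roles in other cells: Tal1, Gata1 and Nfe2 act in megakaryocytes, and Epb41, Fech, Car2, Tal1 and Nfe2 are known from myeloid or many cell types.

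GATA factors bind AGATAA and TGATAA, and the promoters of the members were searched for both on both strands. RefSeq promoter sequences of GRCm38.p6 were at hand for 24 of the 31 members, with 31 start sites in all. AGATAA or TGATAA stood in the 250 bases before the start in 17 of these 31 windows (54.8%), against 5452 of 32851 windows of all genes (16.6%). CCACACCC, a sequence that Klf1 binds, stood in 2 of the 31 windows (6.45%), against 3.2% of all windows. No binding was measured in these samples, and a match describes the letters only. The promoter stretches of 4 members are shown because these genes mark the lineage and had few or no counts in the sorted cells; they are written 5′ to 3′ on the gene's strand, without bases that GENCODE counts as exon. Capitals mark AGATAA or TGATAA, which reads TTATCT or TTATCA where it lies on the other strand.
Alas2 (chrX:150547167-150547374, plus strand): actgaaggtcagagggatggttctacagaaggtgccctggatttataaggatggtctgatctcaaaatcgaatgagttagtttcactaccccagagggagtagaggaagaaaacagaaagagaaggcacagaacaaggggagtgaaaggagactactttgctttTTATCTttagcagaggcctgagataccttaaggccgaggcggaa
Klf1 (chr8:84901732-84901927, plus strand): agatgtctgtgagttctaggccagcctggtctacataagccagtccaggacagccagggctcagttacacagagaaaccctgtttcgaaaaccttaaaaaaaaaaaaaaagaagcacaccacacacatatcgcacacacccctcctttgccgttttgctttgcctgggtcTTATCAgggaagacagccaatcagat
Kel (chr6:41704340-41704575, minus strand): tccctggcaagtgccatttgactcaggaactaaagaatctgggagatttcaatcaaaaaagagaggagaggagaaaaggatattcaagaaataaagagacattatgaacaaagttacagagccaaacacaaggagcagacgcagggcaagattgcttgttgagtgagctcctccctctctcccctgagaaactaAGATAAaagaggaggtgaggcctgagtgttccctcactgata
Rhd (chr4:134864286-134864535, plus strand): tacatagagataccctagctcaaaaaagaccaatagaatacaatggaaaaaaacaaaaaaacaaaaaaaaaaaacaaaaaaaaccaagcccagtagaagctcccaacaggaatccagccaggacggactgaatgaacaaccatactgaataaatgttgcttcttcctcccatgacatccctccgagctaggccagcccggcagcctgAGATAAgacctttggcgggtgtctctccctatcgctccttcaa
The mRNA of Alas2 also has an iron-responsive element in its 5′ untranslated region, a hairpin to which iron regulatory proteins bind and block translation when iron is low. It is shown because the polysomal fraction of Alas2 is reported next. Its loop, in capitals, fits CAGTGN, lies from base 96 of the transcript and is closed by 5 base pairs.
Alas2 hairpin: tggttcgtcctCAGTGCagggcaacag

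Libraries held 8559897 to 26225431 counts. Counts in protein-coding genes, leaving out mitochondrial genes and Lars2, were 3236711 to 19740255 in the sorted libraries, 274914 to 598151 in polysomal BM and 54944 to 76341 in total BM, so total BM is the shallowest group throughout. With library sizes scaled by TMM factors, 1 CPM, a count per 1e6 scaled counts, stood for 18 to 110 counts in sorted libraries, 1.73 to 3.51 in polysomal BM and 0.472 to 0.611 in total BM. Differences below are log2 differences of an edgeR quasi-likelihood fit of all 18 libraries with their standard errors (SE), and a gene is called at an adjusted p under 0.05 (Benjamini-Hochberg over the 14181 genes tested). Of the 31 members, 29 passed the filter on low counts; Rhag and Icam4 did not. Of these 29, 14 passed only through BM, where they were high: Alas2, Slc4a1, Sptb, Epb42, Rhd, Kel, Ermap, Klf1, Gata1, Hemgn, Epor, Tfr2, Car1 and Trim10 reached the filter's cutoff of 0.573 counts per 1e6 counts in fewer than 3 sorted libraries. All of them but Alas2, Slc4a1 and Sptb passed only through polysomal BM. Both splits were made after the data were seen. No source says that libraries of a group came from separate animals or cultures, so p-values measure the spread between these libraries, which may be technical.

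The erythroid genes made up 1.20, 0.896 and 1.18% of protein-coding counts in polysomal BM and 0.952, 0.908 and 0.919% in total BM. In sorted libraries their share was between 0.0177 and 0.0643%. Between such samples, fewer red cell precursors and less RNA per precursor cannot be told apart. All 31 had counts in every polysomal BM library, and 26 to 28 had counts in a total BM library. The label fits these values in BM, where globins, Alas2, Slc4a1 and Klf1 were all present.

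**Figure D1:**
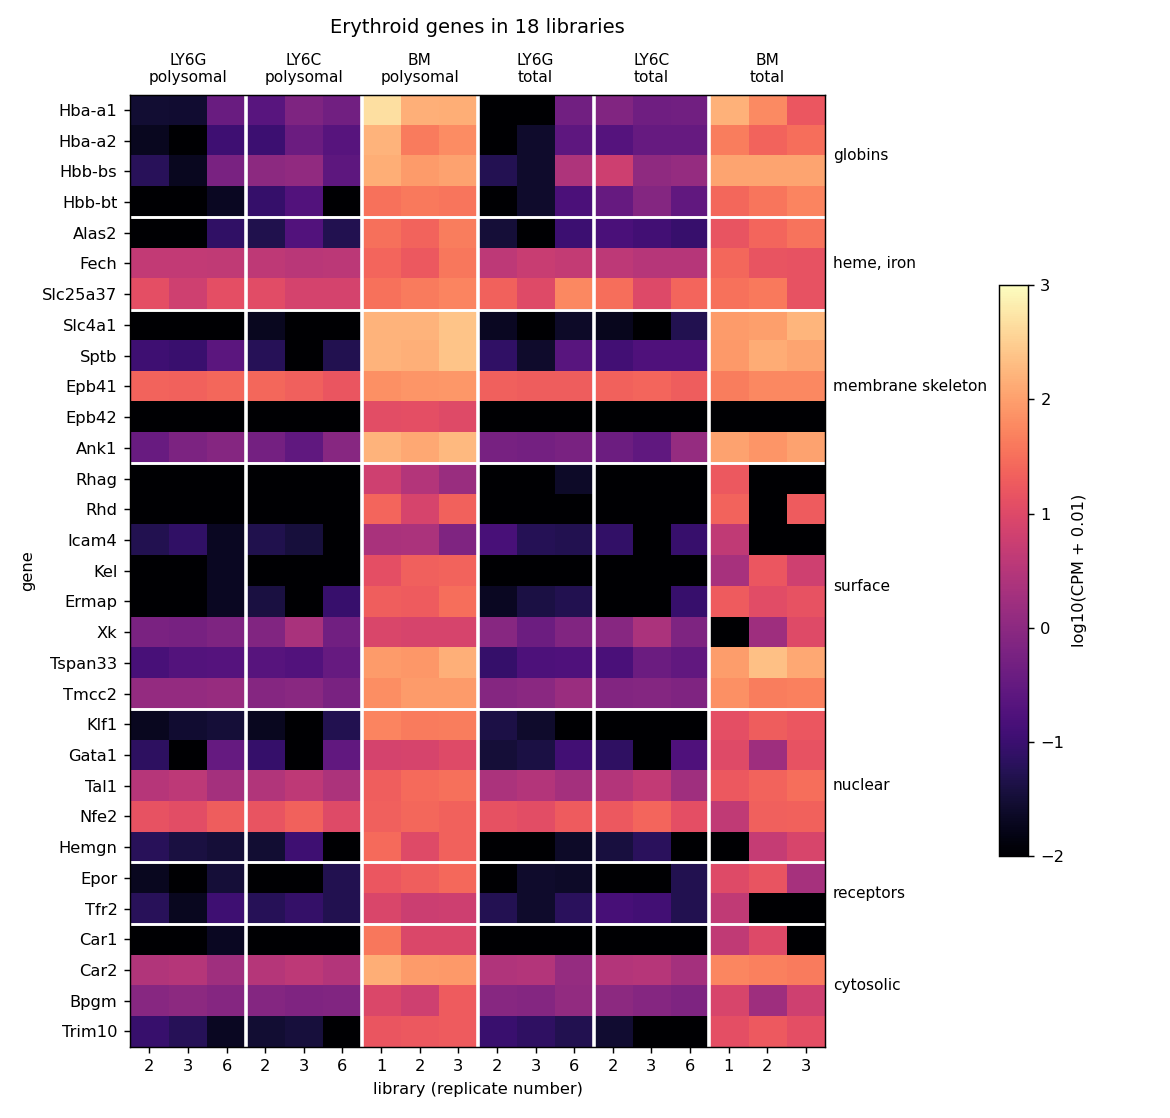
Heat map of the 31 erythroid genes (rows, grouped by role) in the 18 libraries (columns), coloured by log10 of CPM plus 0.01, dark for low levels. The polysomal BM columns are filled from top to bottom, whereas in the LY6G and LY6C columns a few rows, among them Epb41, Nfe2, Slc25a37, Fech and Tal1, hold most of the signal.

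Scaled by exon length and protein-coding counts (counts per kilobase and per 1e6 protein-coding counts), the order in polysomal BM was led by Hba-a1 with 1876 ± 1314 and Hbb-bs with 904 ± 174 (SD, n = 3). Hba-a2 at 813 ± 547, Hbb-bt at 321 ± 38.2, Car2 at 271 ± 64.0, Slc4a1 at 238 ± 70.2 and Klf1 at 186 ± 17 followed on this per-length scale. In total BM the per-length order was Hbb-bs with 1221 ± 52.8, Hba-a1 with 803 ± 769, Hbb-bt with 452 ± 166 and Hba-a2 with 411 ± 151. Each gene named here lay within 1 SD of its neighbour in the order, by the larger SD of the pair. Whether the rRNA depletion also removed globin mRNA was not given in the sources used here, so the globin levels are those of the libraries as made.

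Polysomal was compared with total RNA within BM to ask which erythroid mRNAs are enriched on or depleted from polysomes. Of 29 members tested, 1 was called higher in polysomal BM and none lower, where 2.6% of all genes were called higher and 0.797% lower. The member called is among the 11 that passed the filter only through polysomal BM, which leans toward a higher level there. Its call is thus a description, as are the differences and p-values below for these 11. Of the other 18 none was called. Before adjustment, 7 members and 2759 of all genes had p under 0.05 in edgeR; DESeq2 called no member and limma called 1. The median log2 difference of the members was 0.65, against 0.55 for all genes, and 18 of 29 lay above the median of all genes. The levels of 10 members did not overlap between the groups and were all higher in polysomal BM, 6 of them among the 11 that passed only there, where 19.5% of all genes were higher without overlap and 1.84% lower. With TMM factors 27 log2 differences were positive; with DESeq2's size factors or as shares of protein-coding counts, where the median of all genes moved to 0.13 and 0.22, 22 of 29 and 21 of 31 were.

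Epb42, protein 4.2, which ties band 3 to the skeleton, was the member called. It had 42, 22 and 29 counts in polysomal BM and 0 in each total BM library. That is at least 6.01-fold higher in polysomal BM, set against 3 counts over the total group (edgeR adjusted p = 0.0299). The call was lost when any 1 of the 6 BM libraries was left out, and the depth of total BM limits it.

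Among the globins, Hba-a1 had 470.1, 149 and 139 CPM in polysomal BM, against 157, 58.9 and 16.5 CPM in total BM. Hba-a2 had 163, 42.8 and 63.2 CPM in polysomal BM, against 44.5, 22.9 and 31.0 CPM in total BM. For both alpha genes BM number 1 was the highest library of its fraction, and its total level overlapped the polysomal levels of the others. Hbb-bs had 142, 89.6 and 109 CPM in polysomal BM, against 114, 113 and 112 CPM in total BM. Hbb-bt had 33.4, 39.3 and 36.9 CPM in polysomal BM, against 25.4, 36.0 and 53.7 CPM in total BM. The beta genes thus overlapped wholly between fractions. The log2 differences were 1.71 ± 1.12 (SE) for Hba-a1, 1.47 ± 0.83 for Hba-a2, 0.01 ± 1.23 for Hbb-bs and -0.07 ± 0.60 for Hbb-bt. The edgeR adjusted p were 0.443, 0.347, 1 and 1 in that order. With the replicate number as a block in BM alone Hba-a1 was called higher, at 1.37 (edgeR adjusted p = 2.35e-05). With the block over all libraries Hba-a1 was not called, and whether BM numbers pair libraries could not be told.

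Alpha-globin counts made up 78.3% (95% exact interval 76.8 to 79.8), 59.7 and 58.1% of alpha- plus beta-globin counts in polysomal BM. In total BM they made up 59.0% (51.0 to 66.7), 35.5 and 22.3%. This share does not depend on scaling; in each fraction number 1 had the highest share, and the total library of number 1 lay just above the lowest polysomal library. The coding sequences of Hba-a1 and Hba-a2 share 428 of 429 bases and those of Hbb-bs and Hbb-bt 443 of 444, and how reads that fit both copies were counted was not given. The split within a pair is therefore uncertain, and all 4 levels would be too low if such reads were dropped. Intervals cover counting error only.

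**Figure D2:**
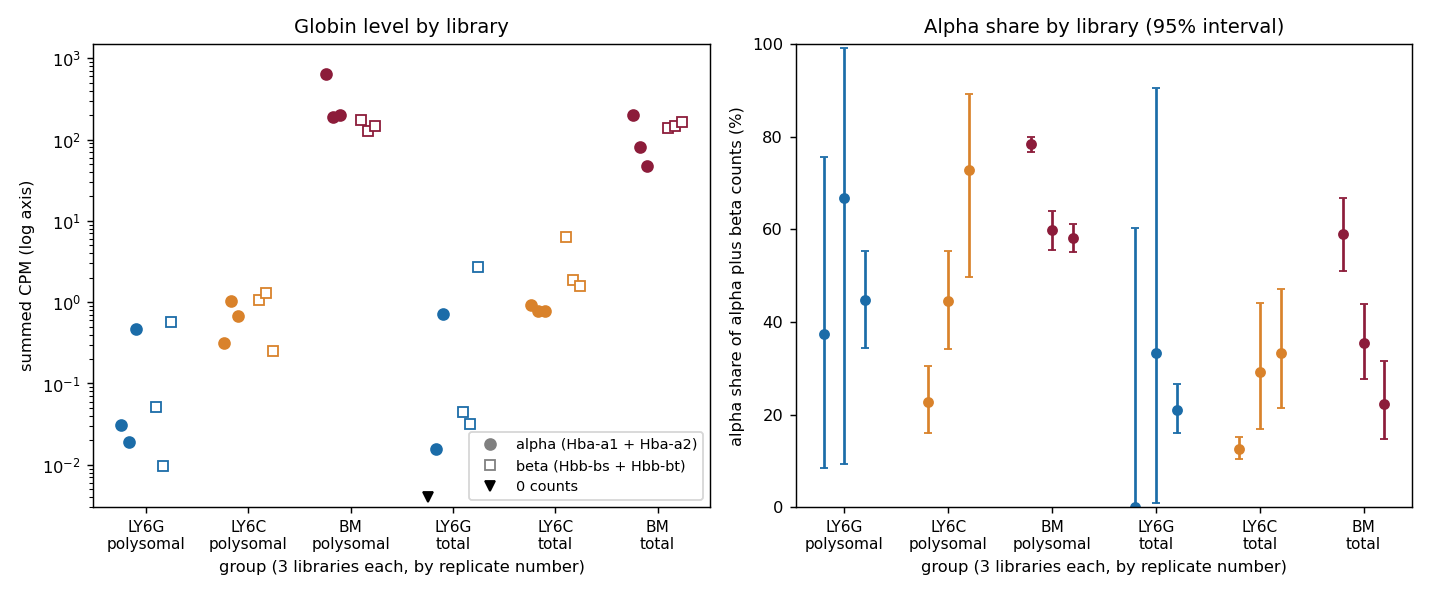
Left, summed CPM (log axis) of the alpha-globins (filled circles) and beta-globins (open squares), 1 point per library and a triangle for 0 counts; right, alpha-globin as a percentage of globin counts with 95% exact intervals of counting error. The highest alpha share of total BM lies just above the lowest of polysomal BM, and the sorted libraries lie below 10 CPM.

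In heme synthesis and iron import, Alas2, the first and rate-limiting enzyme of the pathway in red cell precursors, had 31.7, 23.1 and 44.6 CPM in polysomal BM, against 14.8, 24.6 and 35.1 CPM in total BM. Fech, which inserts iron into protoporphyrin, had 24.2, 16.8 and 38.3 CPM in polysomal BM, against 25.4, 14.7 and 14.5 CPM in total BM. Slc25a37 (mitoferrin 1), which carries iron into mitochondria, had 34.2, 42.8 and 52.0 CPM in polysomal BM, against 33.9, 40.9 and 14.5 CPM in total BM. For all 3 the fractions overlapped. The log2 differences were 0.42 ± 0.64 for Alas2, 0.56 ± 0.37 for Fech and 0.52 ± 0.56 for Slc25a37 (edgeR adjusted p = 0.808, 0.447 and 0.682). The sign of the Alas2 difference depended on the scaling, so no shift of this iron-regulated mRNA between fractions was detectable at this depth.

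In the membrane skeleton, Slc4a1 (band 3) had 159, 158 and 246 CPM in polysomal BM, against 88.9, 99.8 and 171 CPM in total BM. Sptb, the beta-spectrin of red cells, had 161, 150.3 and 238 CPM in polysomal BM, against 84.7, 133 and 112 CPM in total BM. Ank1, the ankyrin that links spectrin to band 3, had 159, 124 and 181 CPM in polysomal BM, against 106, 80.2 and 110 CPM in total BM. The polysomal levels of Sptb and Ank1 were all above the total ones; Slc4a1 overlapped through 1 total library. Epb41, protein 4.1, which joins spectrin to actin, had 69.3, 79.2 and 81.2 CPM in polysomal BM and 44.5, 57.3 and 57.9 CPM in total BM, also without overlap. The log2 differences lay between 0.52 ± 0.27 (Epb41) and 0.74 ± 0.47 (Sptb), with 0.65 for both Slc4a1 and Ank1, close to the median of all genes, and none was called.

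Among the surface proteins, Kel, the Kell antigen and an endopeptidase, had 12.3, 21.4 and 23.2 CPM in polysomal BM, against 2.12, 16.4 and 6.20 CPM in total BM. Tmcc2, a transmembrane coiled-coil protein, had 67.0, 88.5 and 92.1 CPM in polysomal BM, against 67.7, 44.2 and 47.5 CPM in total BM. Tspan33, a tetraspanin, had 91.3, 80.9 and 145 CPM in polysomal BM, against 95.3, 218 and 126 CPM in total BM. It was the member with the lowest log2 difference, -0.47 ± 0.37 (edgeR adjusted p = 0.544), and its fractions overlapped. Kel and Tmcc2 differed by 1.13 ± 0.65 and 0.64 ± 0.30 on the log2 scale and also overlapped. With the replicate number as a block in BM alone Tspan33 was called lower, at -0.91 (edgeR adjusted p = 0.0164). With the block over all libraries Tspan33 was not called, and whether BM numbers pair libraries could not be told. Rhd, the Rh antigen protein, had 24.0, 8.09 and 22.5 CPM in polysomal BM and 23.3, 0 and 18.6 CPM in total BM. Ermap, the Scianna antigen, had 20.3, 19.1 and 30.2 CPM in polysomal BM and 19.1, 11.5 and 14.5 CPM in total BM, and Xk, the partner of Kel, had 8.84, 8.09 and 8.08 CPM in polysomal BM and 0, 1.64 and 10.3 CPM in total BM. Of these 3 genes Ermap did not overlap, by a narrow margin. Rhag, the Rh-associated glycoprotein, had 22, 5 and 4 counts in polysomal BM and 8, 0 and 0 in total BM, too few to compare; Icam4 had 16 counts in BM in all.

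Of the nuclear proteins, Klf1, the activator of adult beta-globin and many other red cell genes, had 53.6, 42.2 and 43.2 CPM in polysomal BM, against 12.7, 19.6 and 16.5 CPM in total BM. Its groups did not overlap, at a log2 difference of 1.50 ± 0.43 (edgeR adjusted p = 0.0625). The edgeR adjusted p was 0.0481 when genes needed at least 50 counts in 3 libraries, which Klf1 reached in polysomal BM only. With the replicate number as a block over all libraries it was 0.0426, and with the block in BM alone Klf1 was not called. Klf1 and Hemgn passed the main filter only through polysomal BM, which leans toward a higher level there. Their differences and p-values are therefore a description. Hemgn (hemogen) had 28.0, 10.4 and 22.8 CPM in polysomal BM, against 0, 4.91 and 8.26 CPM in total BM. Its log2 difference of 2.21 ± 0.75 rested on 7 counts in total BM (edgeR adjusted p = 0.102). Gata1 had 7.70, 8.09 and 10.2 CPM in polysomal BM, against 10.6, 1.64 and 14.5 CPM in total BM. Tal1 had 20.3, 27.8 and 32.7 CPM in polysomal BM, against 16.9, 22.9 and 31.0 CPM in total BM, and Nfe2, a subunit of the NF-E2 factor, had 21.4, 26 and 22.5 CPM in polysomal BM, against 4.23, 21.3 and 22.7 CPM in total BM. The last 3 factors overlapped between fractions.

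Among receptors, Epor had 16.3, 20.2 and 26.4 CPM in polysomal BM, against 10.6, 14.7 and 2.07 CPM in total BM, without overlap and at a log2 difference of 1.16 ± 0.66. Tfr2, the second transferrin receptor, had 30, 10 and 17 counts in polysomal BM and 2, 0 and 0 in total BM, which is 5.53 times the total level per library size (95% counting interval 1.46 to 46.7). Of the cytosolic enzymes, Car2, a carbonic anhydrase, had 142, 91.9 and 87.5 CPM in polysomal BM, against 55.0, 47.5 and 41.3 CPM in total BM. All 3 polysomal levels of Car2 were above the total ones, and the log2 difference was 1.16 ± 0.36 (edgeR adjusted p = 0.0748). Car1 had 38.2, 9.25 and 9.14 CPM in polysomal BM, against 4.23, 9.82 and 0 CPM in total BM, which overlapped. Bpgm, which makes the bisphosphoglycerate that lowers the oxygen affinity of hemoglobin, had 9.13, 6.36 and 18.6 CPM in polysomal BM, against 8.47, 1.64 and 6.20 CPM in total BM. Trim10, a RING finger protein of red cell precursors, had 15.4, 16.8 and 19.0 CPM in polysomal BM, against 12.7, 18 and 12.4 CPM in total BM, and both genes overlapped.

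**Figure D3:**
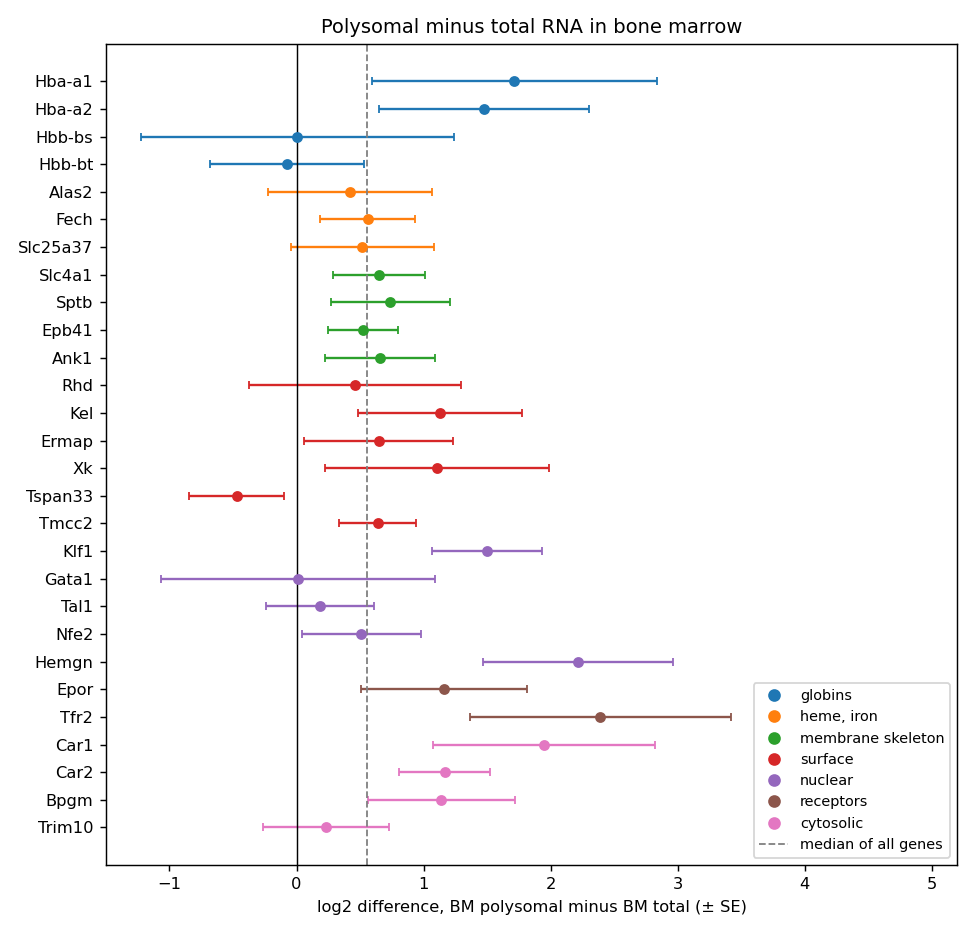
Log2 difference between polysomal and total BM for 28 tested erythroid genes, coloured by role, with bars of 1 SE; the solid line marks 0 and the dashed line the median of the 14181 genes tested, and Epb42, at 0 counts in total BM, is left out. Most points lie near the median of all genes, and the bars of Hbb-bs and Hba-a1 are the widest.

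Markers of other cells in BM stood as follows in its fractions. The 15 granulocyte and monocyte markers summed to 1966 to 2801 CPM in polysomal BM and 833 to 881 CPM in total BM. Their median log2 difference was 1.70, and 1 of them, Csf1r, was called higher, against 2.6% of all genes. The 11 stroma and endothelium markers summed to 2031 to 6284 CPM in polysomal BM and 2759 to 6896 CPM in total BM, with a median of -0.20. The 8 B cell markers summed to 158 to 162 CPM in polysomal BM and 80.6 to 116 CPM in total BM. Protein-coding counts were 1.82 to 3.71% of polysomal BM libraries and 0.232 to 0.291% of total BM libraries. The part of these differences in the values of the erythroid genes was not tested.

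Sorted cells were set against BM in the same fraction, to ask how much erythroid RNA the cultured and sorted cells held. This contrasts separate samples and measures no loss over time. Of the 15 members that passed the filter in sorted cells too, 14 were called lower than BM in polysomal LY6G cells and 14 in polysomal LY6C cells. Of the 14061 genes that passed in that way, 14.6% and 10.5% were called lower. In total RNA 12 of the 15 were called lower in LY6G cells and 12 in LY6C cells, against 8.72% and 6.75% of those genes. In polysomal RNA the 6 smallest of the called differences were those of Epb41, Slc25a37, Fech, Tal1, Xk and Bpgm. With the 14 members that passed only through BM, which the filter leads to be lower in sorted cells, 28 of 29 were called lower in polysomal LY6G cells and 28 in polysomal LY6C cells than in BM, against 15.3% and 11.2% of all genes. In total RNA 25 were called lower in LY6G cells and 24 in LY6C cells, against 9.39% and 7.4% of all genes. No member was called higher. The median log2 difference of the 15 was -5.40 for LY6G and -5.02 for LY6C in polysomal RNA. That of the 29, as a description, was -9.12 for LY6G and -8.66 for LY6C in polysomal RNA, and -7.73 for LY6G and -6.91 for LY6C in total RNA; all genes had 0.45, 0.52, 1.63 and 1.64 in that order. Holding genes with 0 counts at their bounds left these medians as they were. In each fraction the LY6G and LY6C comparisons share the same BM libraries.

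Slc4a1 had 0 counts in all LY6G polysomal libraries and 1, 0 and 0 in those of LY6C, against 559, 274 and 699 in polysomal BM. In total RNA it had 1, 0 and 1 counts in LY6G cells and 1, 0 and 1 in LY6C cells, against 42, 61 and 83 in BM. Polysomal LY6G cells were thus at least 18184-fold lower than BM, set against 3 counts over the group, and polysomal LY6C cells 31478-fold lower with a 95% counting interval of 5641 to 1.24e+06. Epb42 and Rhd had no count in any of the 12 sorted libraries; polysomal Rhd, with 84, 14 and 64 counts in BM, was at least 1760-fold lower in LY6G cells and at least 1006-fold lower in LY6C cells. Kel and Car1 had 1 count each over the 12 sorted libraries, Rhag also 1, Epor 7 and Klf1 11. Klf1 had 1, 2 and 2 counts in polysomal LY6G cells and 1, 0 and 1 in polysomal LY6C cells, against 188, 73 and 123 in polysomal BM, and 0 counts in total LY6C cells, at least 828-fold below total BM.

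Sptb, Ank1 and Tspan33 had low but repeated counts in sorted cells. Sptb had 10, 9 and 22 counts in polysomal LY6G cells and 5, 0 and 1 in polysomal LY6C cells, against 563, 260 and 678 in polysomal BM, at log2 differences of -10.29 ± 0.68 for LY6G and -12.27 ± 0.78 for LY6C (-13.21 without LY6C number 2). Ank1 had 34, 66 and 74 counts in polysomal LY6G cells and 52, 11 and 21 in polysomal LY6C cells, against 556, 214 and 516 in polysomal BM, at -8.00 ± 0.57 for LY6G and -8.17 ± 0.58 for LY6C. The sorted libraries were many times deeper in protein-coding counts, so that raw counts understate these gaps. Tspan33 differed by -9.22 ± 0.53 in polysomal LY6G cells and -8.85 ± 0.53 in polysomal LY6C cells, and Tmcc2 by -5.98 ± 0.35 and -6.72 ± 0.37. Each of these genes was below every BM library in every sorted library, in both fractions.

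Alas2 had 0, 0 and 6 counts in polysomal LY6G cells and 4, 7 and 1 in polysomal LY6C cells, against 111, 40 and 127 in polysomal BM. Its log2 differences were -10.46 ± 0.91 for LY6G (edgeR adjusted p = 8.2e-08) and -8.66 ± 0.85 for LY6C (edgeR adjusted p = 4.84e-07). Like Slc4a1, Sptb and Klf1 above, Alas2, Gata1, Ermap, Hemgn, Tfr2 and Trim10 passed the filter only through BM. The filter leads such genes to be lower in sorted cells, so their differences and p-values are descriptions. Of all genes that passed only in that way, 98.3% were called lower in polysomal LY6G cells and 96.7% in polysomal LY6C cells. Without number 6 the LY6G libraries held no polysomal Alas2 count, and without number 3 they differed by -9.85; LY6C differed by -8.05 without number 2 and -9.59 without number 3. Gata1 had 6, 0 and 28 counts in polysomal LY6G cells and 8, 0 and 7 in polysomal LY6C cells, against 27, 14 and 29 in polysomal BM, at -6.12 ± 1.11 and -6.35 ± 1.18. Without number 6 the Gata1 differences were -8.01 for LY6G and -7.34 for LY6C, and without number 3 they were -5.50 and -5.73. LY6G number 6 held most Gata1 counts of its group. In that library Itga2b, an integrin of megakaryocytes, had 389 polysomal and 252 total counts, against 122 and 58 polysomal and 141 and 51 total counts in LY6G numbers 2 and 3. Itga2b is 1 of 12 listed megakaryocyte and platelet markers, picked after its values were seen. The whole list had 21699 polysomal and 7744 total counts in number 6. In number 2 it had 7739 and 6364, and in number 3 it had 7393 and 3950. Of its 8 genes tested, 5 were called lower and 0 higher in polysomal LY6G cells than in BM, against 15.3% of all genes called lower. Whether the Itga2b and Gata1 counts share a source was not tested. Ermap, Hemgn, Tfr2 and Trim10 had 14, 21, 50 and 34 counts over the 12 sorted libraries and were lower in both polysomal comparisons; Tfr2 was called in total LY6G cells (edgeR adjusted p = 0.0211; 0.820 without BM number 1) and not in total LY6C cells (edgeR adjusted p = 0.0689), and Icam4 had 45 counts over the sorted libraries.

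Other members had clear levels in sorted cells. Epb41 averaged 23.8 ± 1.73 CPM in polysomal LY6G cells, 20.7 ± 4.82 CPM in polysomal LY6C cells and 76.6 ± 6.35 CPM in polysomal BM (SD, n = 3 each), and its log2 differences from BM were -1.68 ± 0.26 for LY6G and -1.88 ± 0.26 for LY6C. In total RNA they were -1.38 ± 0.27 and -1.25 ± 0.27. Fech had 4.36, 4.36 and 4.27 CPM in polysomal LY6G cells and 4.11, 3.50 and 3.63 CPM in polysomal LY6C cells, against 24.2, 16.8 and 38.3 CPM in polysomal BM. Tal1 had 3.16, 3.81 and 1.95 CPM in polysomal LY6G cells and 2.87, 4.09 and 2.46 CPM in polysomal LY6C cells, against 20.3, 27.8 and 32.7 CPM in polysomal BM. Both genes were lower than BM without overlap, at log2 differences of -2.62 for LY6G and -2.82 for LY6C (Fech) and -3.17 and -3.09 (Tal1). Car2, at 2.79, 3.13 and 1.69 CPM in polysomal LY6G cells and 3.10, 3.83 and 2.97 CPM in polysomal LY6C cells, differed from BM by -5.40 and -5.02. Bpgm, at 0.878, 1.00 and 0.834 CPM in polysomal LY6G cells and 0.779, 0.686 and 0.710 CPM in polysomal LY6C cells, differed by -3.66 and -3.98. In total RNA the Bpgm calls were lost without BM number 1 (edgeR adjusted p = 0.0790 for LY6G and 0.0852 for LY6C).

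Nfe2 was not called in any of the 4 comparisons with BM. It had 14.6, 11.8 and 19.5 CPM in polysomal LY6G cells and 14.8, 22.4 and 10.6 CPM in polysomal LY6C cells, against 21.4, 26 and 22.5 CPM in polysomal BM. The LY6G levels lay below BM and 1 LY6C level overlapped, at log2 differences of -0.60 ± 0.39 for LY6G and -0.54 ± 0.39 for LY6C (edgeR adjusted p = 0.236 and 0.308). In total RNA Nfe2 averaged 15.0 ± 3.6 CPM in LY6G cells and 17.7 ± 5.99 CPM in LY6C cells, against 16.1 ± 10.3 CPM in BM. Slc25a37 was called lower in polysomal RNA, by -2.04 ± 0.52 in LY6G and -2.28 ± 0.53 in LY6C cells (edgeR adjusted p = 0.00469 and 0.00267). In total RNA it had 22.1, 10.4 and 57.1 CPM in LY6G cells and 30.0, 9.81 and 24.5 CPM in LY6C cells, overlapping the 33.9, 40.9 and 14.5 CPM of BM. Xk had 0.610, 0.550 and 0.667 CPM in polysomal LY6G cells and 0.720, 2.29 and 0.459 CPM in polysomal LY6C cells, below every polysomal BM library. In total RNA Xk was not called (edgeR adjusted p = 0.0582 for LY6G and 0.228 for LY6C), where 1 BM library had no count of it.

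**Figure D4:**
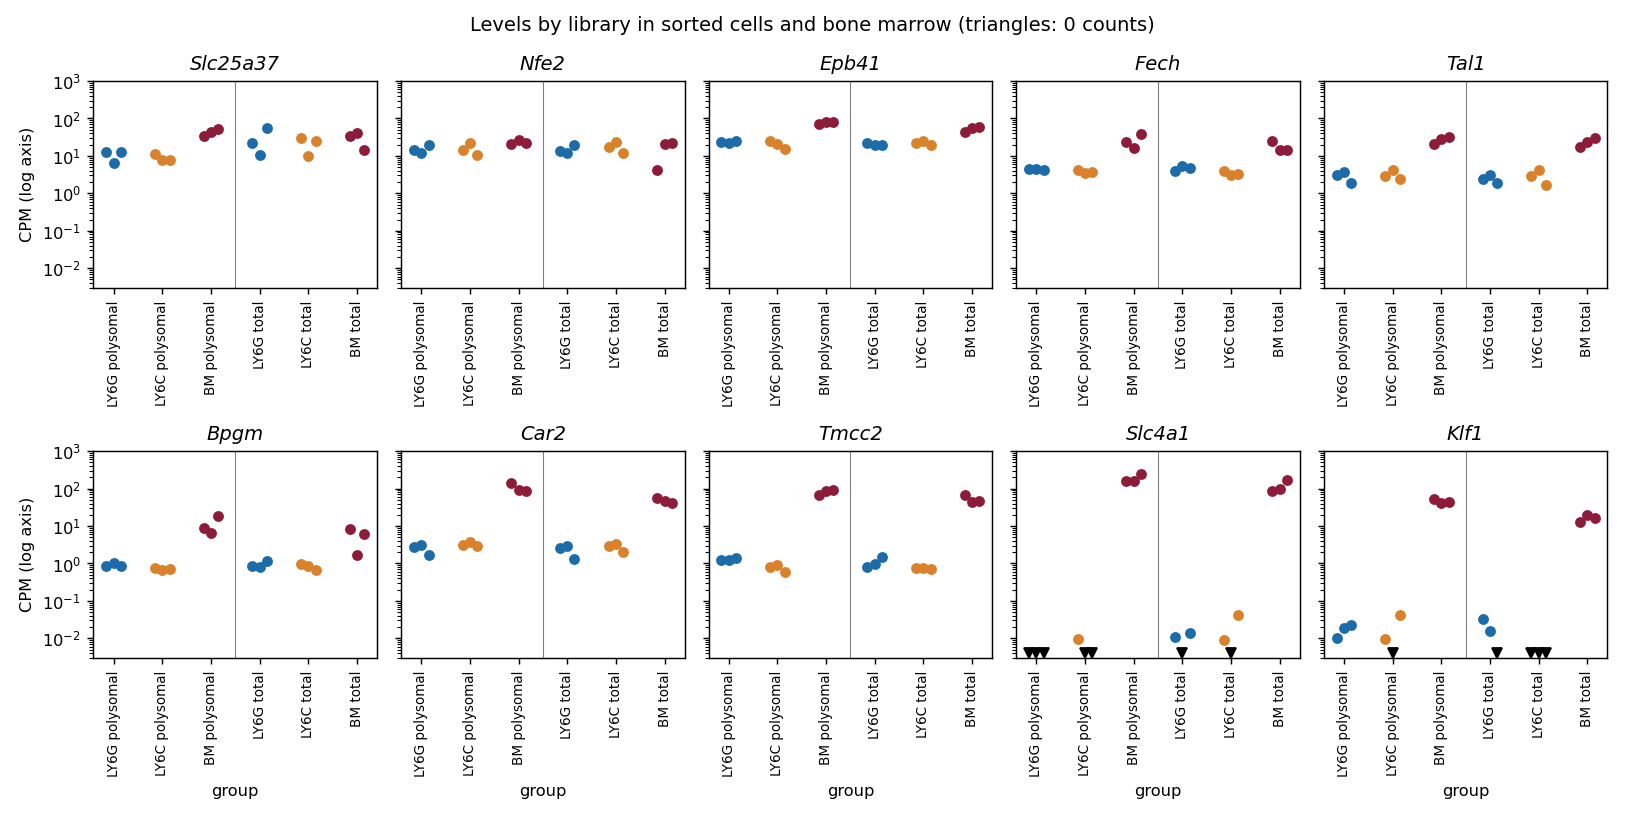
Levels of 10 erythroid genes in the 18 libraries (CPM on a log axis), 1 point per library in order of replicate number, triangles for 0 counts, polysomal groups left of total ones. Total Nfe2 and total Slc25a37 overlap BM, Epb41, Fech, Tal1 and Bpgm lie lower in sorted cells, and Slc4a1 and Klf1 are at or near 0 there.

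The traces of globin in sorted cells were uneven between libraries. Hbb-bs had 5, 1 and 51 counts in polysomal LY6G cells and 101, 44 and 6 in polysomal LY6C cells, against 497, 155 and 309 in polysomal BM. In total RNA it had 4, 1 and 185 counts in LY6G cells and 666, 20 and 31 in LY6C cells, against 54, 69 and 54 in BM. LY6G number 6 and LY6C number 2 held most of these counts, in the total fraction above all. LY6C number 2 is also the deepest of its group. In polysomal LY6C cells number 3 was the highest in CPM, at 1.12 against 0.983 for number 2. In CPM, total Hbb-bs was 0.0445, 0.0159 and 2.54 in LY6G cells and 6.04, 1.11 and 1.29 in LY6C cells. The differences from BM were -9.09 ± 1.71 for LY6G and -7.12 ± 1.57 for LY6C in polysomal RNA (edgeR adjusted p = 0.000847 and 0.00321), and -7.02 ± 1.57 and -5.27 ± 1.45 in total RNA (adjusted p = 0.00348 and 0.0138). Single libraries set these sizes: without number 6 LY6G differed by -11.73 in polysomal and -11.64 in total RNA, and without number 3 by -8.49 and -6.43. Without LY6G number 2 the total difference was also -6.43. Without number 2 total LY6C differed by -6.53, and without number 3 its call was lost (edgeR adjusted p = 0.0574). Hba-a1 had 2, 2 and 33 counts in polysomal LY6G cells and 22, 26 and 11 in polysomal LY6C cells, against 1648, 257 and 395 in polysomal BM.

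The ratios of erythroid genes to beta-globin in these traces depended on single libraries. Per 100 beta-globin counts, pooled over libraries and fractions, Slc4a1 had 0.769 in LY6G cells, 0.319 in LY6C cells and 115 in BM. Sptb had 24.6 per 100 in LY6G cells, 2.66 in LY6C cells and 113 in BM, and Klf1 had 3.46 in LY6G cells, 0.213 in LY6C cells and 27.6 in BM. Alas2 had 5.77, 3.40 and 21.3 per 100 in LY6G cells, LY6C cells and BM in that order. Gata1 went the other way in LY6G cells, with 17.7 per 100, against 2.77 in LY6C cells and 5.58 in BM. With the number richest in beta-globin left out, a choice made after the data were seen, the ratios moved. Without number 6 the LY6G libraries held 12 beta-globin counts in all, to which Sptb stood at 217 per 100 (26 counts) and Klf1 at 58.3 (7 counts), both above BM, Gata1 at 83.3 (10 counts), Alas2 at 16.7 (2 counts) and Slc4a1 at 8.33 (1 count). Without number 2 the LY6C libraries held 129 beta-globin counts, to which Gata1 stood at 8.53 per 100, then above BM, Alas2 at 9.30, Sptb at 6.20, and Klf1 and Slc4a1 at 0.775 each. Of these genes Slc4a1 and Alas2 were below the BM ratio in both populations with and without these libraries, on few counts. Hbb-bs made up 98.3% of beta-globin counts in polysomal LY6G cells and 91.0% in polysomal LY6C cells, against 76.8% in polysomal BM; in total RNA the shares were 94.1, 92.6 and 74.7% in the same order. Alpha-globin made up 44.8% of globin counts in polysomal LY6G cells and 34.9% in polysomal LY6C cells, against 71.4% in polysomal BM. In total RNA it made up 20.8% in LY6G cells and 14.9% in LY6C cells, against 41.5% in BM. These are ratios of pooled counts, in which LY6G number 6 and LY6C number 2 weigh most, and they were not tested.

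LY6G cells were set against LY6C cells to ask whether the populations differ in these traces. None of 29 members was called in total or polysomal RNA, where 0% of all genes were called in either direction by edgeR. As this fit called no gene at all, it cannot tell whether the members differ between the populations. It has no block for same-numbered libraries, which pair in the sorted cells. With the replicate number as a block no member was called either. In total RNA 3 members and 565 of all genes had an unadjusted edgeR p under 0.05. In polysomal RNA 5 members and 833 of all genes did. DESeq2 also called no member, and limma called Hbb-bt lower in total LY6G cells (adjusted p = 0.0422). Hbb-bt had 0, 1 and 11 counts in total LY6G cells and 36, 14 and 7 in total LY6C cells, at a log2 difference of -2.93 ± 0.78 in edgeR. It had 0, 0 and 1 counts in polysomal LY6G cells and 8, 7 and 0 in polysomal LY6C cells, at -3.94 ± 1.20. Hbb-bs differed by -1.75 ± 1.26 in total and -1.97 ± 1.36 in polysomal RNA, with groups that overlapped.

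Polysomal was compared with total RNA within the sorted cells as well. No member was called in LY6G or LY6C cells, where 0% of all genes were called higher or lower by edgeR. In LY6G cells 3 members and 254 of all genes had an unadjusted edgeR p under 0.05. In LY6C cells 3 members and 433 of all genes did. DESeq2 called no member. The limma fit called Hemgn higher in polysomal LY6G cells (adjusted p = 0.0233), on 5, 3 and 2 polysomal and 0, 0 and 1 total counts. Slc25a37 had 12.6, 6.46 and 12.4 CPM in polysomal LY6G cells, against 22.1, 10.4 and 57.1 CPM in total LY6G cells. It had 11.2, 7.57 and 7.64 CPM in polysomal LY6C cells, against 30.0, 9.81 and 24.5 CPM in total LY6C cells. The polysomal level was the lower one in all 6 same-numbered pairs, at log2 differences of -1.51 ± 0.51 for LY6G and -1.28 ± 0.51 for LY6C (edgeR adjusted p = 1 for both). That fit has no block for these pairs. With the replicate number as a block no member was called within the sorted cells either. In BM Slc25a37 differed by 0.52 ± 0.56. The difference between these differences was -2.03 ± 0.75 for LY6G minus BM and -1.80 ± 0.75 for LY6C minus BM (edgeR adjusted p = 0.219 and 0.288). With the replicate number as a block in the groups compared, Slc25a37 was called for LY6G minus BM, at -1.85 (edgeR adjusted p = 0.0389). Whether the BM numbers pair their libraries could not be told. With the block over all groups the edgeR adjusted p was 0.104. By this test of polysomal minus total in sorted cells against BM, 0 members were called without a block. For LY6G 4 members and 2012 of all genes had an unadjusted edgeR p under 0.05. For LY6C 4 members and 1962 of all genes did. DESeq2 called no member, and limma called Epb42 lower for LY6G minus BM (adjusted p = 0.0190). Of all genes 0.0987% were higher and 0.317% lower for LY6G, and 0.0846% higher and 0.254% lower for LY6C.

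Other genes of the same pathways were taken from lists and are given by count. Which of them passed the filter only through BM is not given. That filter leads such genes to be lower in sorted cells. Of 9 further heme synthesis genes, none was called between the BM fractions. In polysomal RNA 8 were called lower in LY6G cells and 8 in LY6C cells than in BM, against 15.3% and 11.2% of all genes. In total RNA 5 were called lower in each, against 9.39% and 7.4% of all genes. Cpox, which makes protoporphyrinogen, averaged 5.36 ± 1.11 CPM in polysomal LY6G cells, 13.7 ± 6.87 CPM in polysomal LY6C cells and 194 ± 30.2 CPM in polysomal BM (SD, n = 3 each). Of 9 tested red cell membrane genes outside the members, 6 were called lower and 1, the glucose transporter Slc2a1, higher in each of the 4 comparisons with BM. Across these comparisons 7.4 to 15.3% of all genes were called lower and 20.2 to 22.1% higher.

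Of 9 tested erythroid transcription factors outside the members, Gfi1b and Lyl1 were called higher in polysomal than in total BM, against 2.6% of all genes. Lyl1 had 66, 19 and 50 counts in polysomal BM and 0 in each total BM library, and Gfi1b had 29, 3 and 14 counts in polysomal BM and 0 in total BM. The depth of total BM limits both calls, and their results in other fits or without 1 library are not given. In polysomal RNA 8 of the 9 were called lower in LY6G cells and 7 in LY6C cells than in BM, against 15.3% and 11.2% of all genes. Zfpm1, the cofactor Fog1 of Gata1, averaged 1.49 CPM in polysomal LY6G cells, 1.76 CPM in polysomal LY6C cells and 208 CPM in polysomal BM. Of 17 tested genes of iron uptake and late maturation, none was called between the BM fractions. In polysomal LY6G cells 7 were called lower and 2 higher than in BM, against 15.3% and 22.1% of all genes. In polysomal LY6C cells 6 were called lower than in BM, against 11.2% of all genes. Tfrc, the transferrin receptor of dividing cells, averaged 27.6 CPM in polysomal LY6G cells, 44.3 CPM in polysomal LY6C cells and 67.1 CPM in polysomal BM.

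Of markers of other cells beside these results, the granulocyte and monocyte list summed to 2840 to 3135 CPM in polysomal LY6G cells and 3193 to 5498 CPM in polysomal LY6C cells, against 1966 to 2801 CPM in polysomal BM. The median log2 difference of the 15 from polysomal BM was -0.97 for LY6G cells, with 5 called higher and 3 lower. For LY6C cells it was 1.16, with 5 higher and 0 lower. Of all genes 22.1% were called higher and 15.3% lower for LY6G, and 20.2% and 11.2% for LY6C. The B cell list summed to 1.71 to 13.5 CPM and the stroma and endothelium list to 8.27 to 53.1 CPM over the sorted libraries. The megakaryocyte and platelet list summed to 24.9 to 375 CPM over the sorted libraries, 259 to 351 CPM in polysomal BM and 169 to 357 CPM in total BM. The library at 375 CPM, polysomal LY6C number 6, had 0 counts for 5 of the 12 genes. Of the 8 tested, 5 were called lower and 0 higher than polysomal BM in each population. Their median log2 difference was -2.81 for LY6G and -2.48 for LY6C cells. Which of the 8 passed the filter only through BM is not given. The part of megakaryocytes in the levels of Gata1, Tal1 and Nfe2 was not tested.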

How the data were processed

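The authors deposited whole-number counts per Ensembl gene, with no normalization, for 18 libraries. Per the labels' protocols, RNA came from sucrose gradients or unfractionated lysates, and stranded total RNA libraries were made after rRNA depletion. The submitters' processing notes name FastQC, STAR 2.5.2a, DESeq, DESeq2, GRCm38 and mm10; the counter, its strand setting and its handling of reads with several matches were not given in the sources used here. Members were matched through GENCODE M21, which named 54809 of the 54838 identifiers. Counts were tested with edgeR 4.0.16 in R 4.3.3 (TMM, filterByExpr with a minimum count of 10, robust glmQLFit, 6 group means), with Benjamini-Hochberg adjustment per comparison over 14181 genes, in 11 comparisons. DESeq2 1.42.0, limma 3.58.1 (voom with quality weights) and other scalings, filters and sample sets were tried as alternatives, and the edgeR step was tested on simulated data. CPM are counts scaled by TMM library sizes; per-length values are counts divided by kilobases of merged exons and by each library's protein-coding counts. Folds against 0 counts used 3 counts over the group, and share intervals are 95% Clopper-Pearson. Total counts per library ran from 8559897 to 26225431. Depth limits the precision of total BM most.

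The members and lists were chosen with earlier results of these data known. Per-library values are given for members with at least 30 counts over the BM libraries, and of each other list at most the 4 genes highest in BM are named, besides genes singled out by a call (Slc2a1, Csf1r, Gfi1b, Lyl1) or as a megakaryocyte marker (Itga2b), which were chosen after their values were seen. Whether replicate numbers, taken from the sample titles, pair libraries was checked by correlating deviations from group means (log2 CPM with a prior count of 2). In BM, polysomal and total libraries of a number correlated at 0.027, 0.011 and 0.0047. At the depth of total BM such values cannot tell whether the BM numbers pair the libraries. The main fit used no block, for BM or for sorted cells. In sorted cells the correlations ran from 0.267 to 0.737, and the numbers pair the libraries.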

Additional observations from a re-analysis of the deposited data

How the results depend on the processing

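Between polysomal and total BM, 1 member was called; the count was 0 with DESeq2, with median-ratio size factors, with counts thinned to the lowest library, as shares of protein-coding counts and without any 1 BM library (0 to 0). It was 2 with no filter on low counts (Epb42, Hba-a1), 3 with the replicate block in all libraries (Car2, Epb42, Klf1) and 2 with the replicate block in BM alone, where Hba-a1 was higher (adjusted p = 2.35e-05) and Tspan33 lower (adjusted p = 0.0164). For sorted cells against BM every call was lower. In total RNA the members called for LY6G and LY6C were 16 and 15 with at least 50 counts in 3 libraries, 14 and 15 with only the groups compared, 12 and 13 with thinned counts, and 12 and 12 with the replicate block in the groups compared. In polysomal RNA they were 17 and 17 with at least 50 counts and 13 and 13 with thinned counts. These settings also test fewer members (18 with at least 50 counts, 14 with thinned counts). Leaving out 1 library gave 24 to 25 (LY6G) and 23 to 25 (LY6C) in total RNA and 28 to 28 for both in polysomal RNA. Between LY6G and LY6C cells, no filter gave 3 calls in total and 3 in polysomal RNA, and limma 1 in total RNA. Between fractions, no filter gave 1 call in LY6C and 1 in LY6G cells, and limma 1 in LY6G cells. For the difference of polysomal minus total between LY6G and BM, limma gave 1 call and the replicate block in the groups compared 1 (Slc25a37, adjusted p = 0.0389). Leave-one-out counts of these other comparisons stayed at 0. With the replicate block in the groups compared, total Epb41 (LY6C), Fech and Bpgm (both populations) lost their calls and polysomal Nfe2 was called lower in LY6G cells than in BM (adjusted p = 0.0174); the block moved no other count of calls by over 1.5 times. Of single-gene values, 24 turned in sign, 8 lost a call, 16 gained one and 1870 did neither.

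The log2 difference of Hbb-bs between BM fractions, 0.01, turned to -0.42 with DESeq2, -0.42 with median-ratio factors, -0.015 with limma, -0.080 with no filter, -0.46 with only BM, -0.68 with thinned counts, -0.092 with protein-coding genes, -0.49 with the replicate block in BM alone, -0.44 as shares and -0.028 without mitochondrial and the 50 most abundant genes. Leaving out 1 library it ran from -0.23 to 0.089. That of Hbb-bt ran from -0.34 to 0.18. That of Alas2 turned to -0.0045 with DESeq2, -0.0038 with median-ratio factors, -0.042 with only BM, -0.052 with the replicate block in BM alone and -0.0041 as shares. Epb41 turned to -0.12 with thinned counts. Without 1 library, Tfr2 in total LY6G cells against BM ran from -5.71 to 4.04, with 4.04 without BM number 1, and Hbb-bs between LY6G fractions from -4.71 to 2.59, with 2.59 without total number 6. The cause was not tested.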

Other observations

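Of 7 embryonic and minor globins, none passed the filter on low counts. They had 0 counts in polysomal LY6G cells, 2 in polysomal LY6C cells and 17 in polysomal BM, and 0 in total LY6G cells, 0 in total LY6C cells and 6 in total BM. Most of the BM counts were those of Hbq1b, a theta-globin gene, at 1.91 ± 1.38 CPM in polysomal BM and 4.18 ± 3.62 CPM in total BM (SD, n = 3 each).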
